A study of Mus musculus with 14 samples.

Results

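Peaks of trimethylated lysine 4 of histone H3 (H3K4me3) that lie at a divergent pair of protein-coding genes were described in immortalised mouse embryo fibroblasts (iMEF). A peak was a member when it contained, or lay within 500 bp of, the transcription start sites (TSSs) of 2 coding genes on opposite strands that point away from each other and start at most 1000 bp apart. Of the 25431 peaks in the deposited list, 1373 (5.40%) were members, and 13804 peaks near exactly 1 coding gene served for comparison. The cells came from mice with floxed Ash2l alleles and carried an inducible Cre-ER recombinase. Exon 4 of Ash2l had been deleted in all of them, and ASH2L, a core subunit of the H3K4 methyltransferase complexes, was supplied by a lentiviral construct encoding human ASH2L with an N-terminal FKBP12F36V tag. The compound dTAG brings the tagged protein to a ubiquitin ligase, which leads to its degradation. Chromatin immunoprecipitation and sequencing was performed on untreated cells and on cells given dTAG for 30 min, 2 h, 4 h, 8 h or 16 h, with 2 H3K4me3 libraries in each of the 6 groups and 2 input libraries. The study used cells of 1 clone, NG3, for these libraries. The peak list is a union over all libraries and gives positions only. Depth and the error between replicates are thus unknown for these positions, and times of treatment were not compared here.

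A divergent, or bidirectional, promoter is a short stretch of DNA from which neighbouring genes are transcribed in opposite directions. Such promoters are typically rich in CpG dinucleotides and poor in TATA boxes, and many of them serve genes that every cell uses. H3K4me3 marks the nucleosomes on either side of active start sites, while the start sites themselves usually lie in a region depleted of nucleosomes. At a divergent promoter the nucleosomes upstream of each gene are therefore the first nucleosomes of its partner.

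The stretches between the TSSs of 9 pairs with a shared peak are shown, since they are the promoters from which both genes start. They are plus-strand sequence of build GRCm38.p6 from RefSeq, they hold no annotated exon, and capitals mark 7 short motifs searched on both strands. Factors of the ETS family such as GABP are known for binding CCGGAAG. The motif of NRF1 was taken as CGCATGCG and that of YY1 as AAGATGGC. Factors of the Sp and Klf families bind GGGCGG, and the trimeric factor NF-Y binds CCAAT. The TATA box was searched as TATAAA, and the site of the CREB and ATF factors as TGACGTCA. The DNA repair stretches lay between Brca1 and Nbr1 (chr11:101551956-101552148) and between Osgep and Apex1 (chr14:50924894-50924967). Brca1 acts in homologous recombination and Apex1 in base excision repair. The stretch between Wrap53 and Trp53, which encodes p53, was chr11:69580256-69580358. Replication genes were represented by Wdhd1, a factor of the replication fork, with Socs4 (chr14:47276858-47276930). Translation was represented by the mitochondrial ribosomal gene Mrps12 with Sars2 (chr7:28741821-28741991), by the lysyl-tRNA synthetase gene Kars with Terf2ip (chr8:112011324-112011397) and by Rps18 with Vps52 (chr17:33955678-33955811). The last stretches lay between the proteasome gene Psma7 and Ss18l1 (chr2:180042434-180042508) and between the histone genes Hist2h2ac and Hist2h2be (chr3:96220881-96221118). For Brca1/Nbr1 and Mrps12/Sars2 the longest run without an exon is shown, 193 of 269 and 171 of 181 bases, and the other 7 stretches are complete.
Brca1/Nbr1: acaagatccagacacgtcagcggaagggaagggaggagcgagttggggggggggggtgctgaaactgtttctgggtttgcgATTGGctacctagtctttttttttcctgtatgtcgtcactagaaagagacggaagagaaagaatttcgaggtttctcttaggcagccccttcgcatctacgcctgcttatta
Osgep/Apex1: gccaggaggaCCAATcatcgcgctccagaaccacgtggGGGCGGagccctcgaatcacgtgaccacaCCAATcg
Wrap53/Trp53: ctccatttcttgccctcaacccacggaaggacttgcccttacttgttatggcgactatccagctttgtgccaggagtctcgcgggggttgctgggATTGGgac
Wdhd1/Socs4: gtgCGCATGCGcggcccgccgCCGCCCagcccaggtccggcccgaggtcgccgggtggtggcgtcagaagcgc
Mrps12/Sars2: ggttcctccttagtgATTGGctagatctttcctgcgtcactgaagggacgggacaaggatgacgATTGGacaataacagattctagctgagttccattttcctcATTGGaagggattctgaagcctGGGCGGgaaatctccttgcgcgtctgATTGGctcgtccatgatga
Kars/Terf2ip: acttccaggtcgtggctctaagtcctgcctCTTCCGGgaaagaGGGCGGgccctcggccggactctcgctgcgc
Psma7/Ss18l1: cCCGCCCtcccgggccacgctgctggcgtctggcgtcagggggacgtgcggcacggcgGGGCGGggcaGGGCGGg
Rps18/Vps52: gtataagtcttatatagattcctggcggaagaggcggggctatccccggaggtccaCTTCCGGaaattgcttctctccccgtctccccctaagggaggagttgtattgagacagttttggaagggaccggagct
Hist2h2ac/Hist2h2be: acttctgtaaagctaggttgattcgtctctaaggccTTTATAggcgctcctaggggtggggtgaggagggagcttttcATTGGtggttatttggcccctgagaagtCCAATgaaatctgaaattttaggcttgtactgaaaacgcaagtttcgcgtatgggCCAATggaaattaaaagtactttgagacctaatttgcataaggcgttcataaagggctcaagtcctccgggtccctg

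These stretches differed widely in composition. The 75 bases between Psma7 and Ss18l1 were 84.0% G and C and held 11 CpGs and 3 GGGCGG motifs. The 238 bases between Hist2h2ac and Hist2h2be were 45.8% G and C and held 7 CpGs, 3 CCAAT motifs and 1 TATAAA. The 171 bases shown for Mrps12/Sars2 held 4 CCAAT motifs, and the NRF1 motif occurred in the stretch between Wdhd1 and Socs4 only, among the 9 shown. A match is a description of the letters and not evidence that a factor binds.

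The annotation, taken on its own, held 1096 divergent coding pairs with TSSs 1 to 1000 bp apart, which involve 2156 genes. A peak was shared by both TSSs in 988 pairs (90.1%, 95% Wilson interval 88.2 to 91.8). In 8 further pairs each TSS had a peak of its own, in 19 pairs (1.73%) a peak lay near 1 of the TSSs, and in 81 (7.39%) no listed peak lay within 500 bp of either TSS. Only the closest TSSs of a pair were used for these counts. TSSs in these pairs were close, with a median distance of 120.5 bp, and 70.4% of the pairs with a shared peak had TSSs at most 200 bp apart. TSSs this close lie within reach of the same peak by construction, so the count of shared peaks mostly says whether the locus had a peak. Intervals here and below cover counting error only. Peaks and genes are not replicates of the cells, so no test was run.

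**Figure D1:**
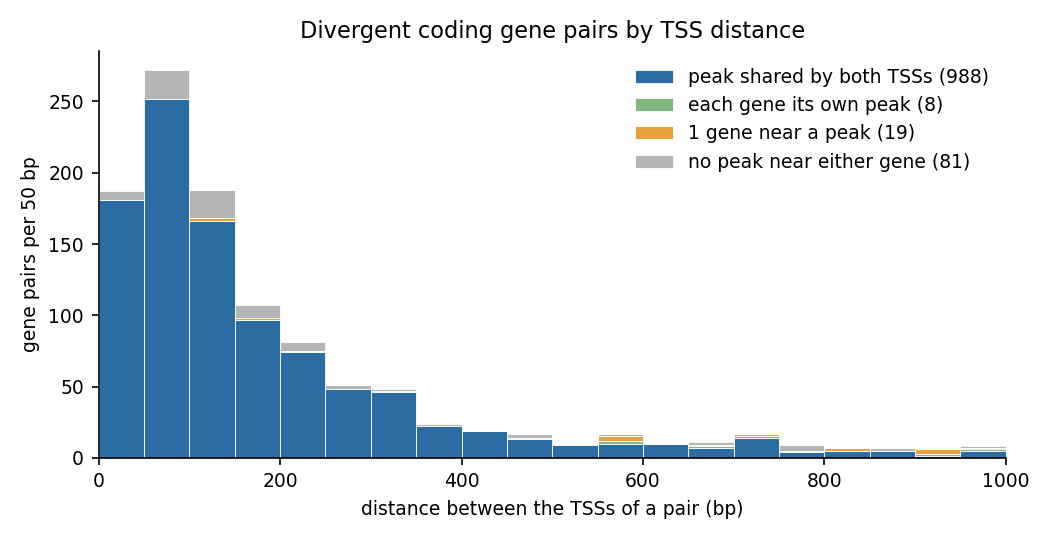
Number of annotated divergent coding gene pairs per 50 bp of distance between their closest TSSs (x axis, bp), stacked by whether a peak was shared by both TSSs (988), each of these TSSs had its own peak (8), a peak lay near 1 of them (19) or near neither (81). Most pairs start within 200 bp of each other, and the shared class makes up most of every bin up to 500 bp.

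The share of pairs with a shared peak was 94.3% for TSSs 1 to 100 bp apart, 92.6% at 301 to 500 bp and 54.1% at 751 to 1000 bp. The pairs just inside the limit of distance were Proser3/Hspb6 at 976 bp and Btf3l4/Txndc12 at 987 bp, and those just outside were Nacc1/Trmt1 at 1004 bp and 5330417C22Rik/1700013F07Rik at 1005 bp. At Proser3/Hspb6 the peak over the TSS of the small heat shock protein gene Hspb6 was 1631 bp wide, and a separate peak of 473 bp held the TSS of Proser3. Nacc1/Trmt1 had 3 peaks nearby, of which the one within 500 bp of both TSSs was 231 bp wide.

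Well-known divergent pairs were looked up by name. Of 20 such pairs, 15 met the rule of distance, and 14 of these shared a peak. The exception was Ranbp1/Trmt2a, with TSSs 151 bp apart, whose nearest listed peak lay 249 kb away. Another 4 pairs have 5′ ends that overlap and so do not meet the rule, although in each of them 1 peak contained both TSSs. Among these, the purine synthesis genes Paics and Ppat overlap by 196 bp under a peak of 872 bp. Tk1 and Afmid overlap by 118 bp under a peak of 1551 bp. The basement membrane collagen genes Col4a1 and Col4a2 overlap by 21 bp under a peak of 3269 bp. The remaining pair, Col4a5/Col4a6, starts 1309 bp apart, and a listed peak lay near Col4a5 but not near Col4a6.

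The peaks at the well-known pairs took 2 forms, which can occur together. Some pairs had a peak that ran across both TSSs. At Surf1/Surf2, whose first gene acts in cytochrome c oxidase assembly, TSSs 22 bp apart lay in a peak of 2926 bp that reached 1040 bp into Surf1 and 1863 bp into Surf2. The peak at Pole, the catalytic subunit of DNA polymerase epsilon, and Pxmp2 was 1716 bp wide and reached 549 bp into Pxmp2 and 1046 bp into Pole. Hars and Hars2, which encode the cytosolic and the mitochondrial histidyl-tRNA synthetase, start 26 bp apart under a peak of 1829 bp. Narrower peaks across both TSSs were found at Psmb9/Tap1, genes of the immunoproteasome and of the peptide transporter for antigen presentation, with 572 bp, and at the collagen genes Col4a4/Col4a3, with 671 bp. At Wrap53/Trp53 a peak of 2302 bp reached 419 bp into Wrap53 and 1778 bp into Trp53.

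At other pairs more than 1 peak lay nearby, in some of them with a peak on either side of the stretch between the TSSs. Hspd1 and Hspe1, which encode the mitochondrial chaperonin and its co-chaperonin, start 108 bp apart and had peaks of 1428 bp and 1544 bp with the space between them on the Hspe1 side. Atm, the kinase that signals DNA breaks, and Npat, a coactivator of histone genes, had peaks of 859 bp and 973 bp that left most of the 307 bp between their TSSs uncovered. Brca1/Nbr1 had peaks of 609 bp and 555 bp. At Mrps12/Sars2 the peaks within reach of both TSSs were 928 bp and 326 bp wide. Cdc45, a part of the replicative helicase, and Ufd1, a cofactor of protein degradation, shared a peak of 825 bp that contained both TSSs and a second of 1059 bp within Ufd1. At Sirt3/Psmd13 a peak of 1284 bp contained both TSSs, and a further peak of 267 bp lay in Sirt3. For Mcm4/Prkdc and Gart/Son, with TSSs 489 bp and 554 bp apart, the flanking peak of the first gene ended too far from the TSS of its partner to be a member, so each pair had 1 member peak, of 674 bp and 636 bp.

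**Figure D2:**
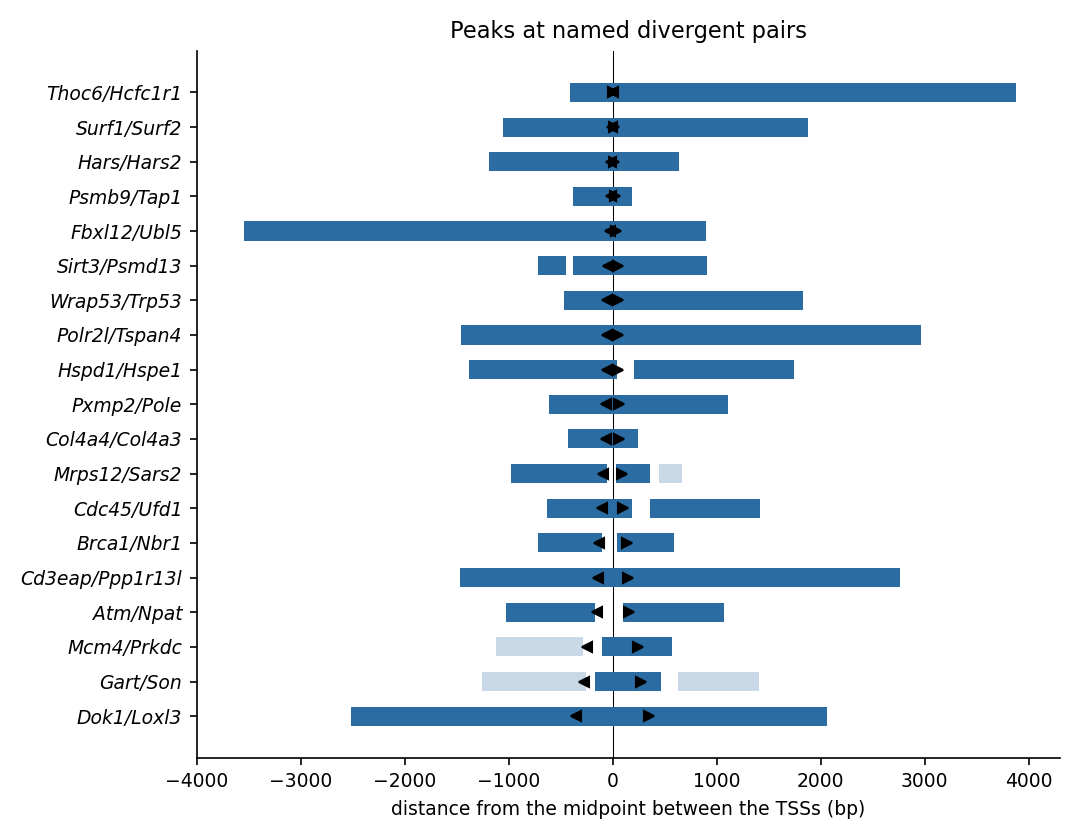
Peaks at 19 named divergent pairs, drawn to scale as bars around the midpoint between the TSSs (x axis, bp). Dark bars are peaks within 500 bp of both TSSs, pale bars other peaks near a TSS, and triangles mark the TSSs and point in the direction of transcription. Surf1/Surf2 and Hars/Hars2 have 1 peak across both TSSs, whereas Atm/Npat and Brca1/Nbr1 have a peak on either side.

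Both forms were frequent among all 988 pairs with a shared peak. In 513 pairs (51.9%) a peak contained both TSSs, and 402 pairs (40.7%, interval 37.7 to 43.8) had 2 shared peaks. The space between the 2 peaks had a median of 152 bp (quartiles 105 to 214), and its centre lay at a median of 26.5 bp from the midpoint between the TSSs. This centre, though not always the whole space, lay between the TSSs in 305 of the 402 pairs (75.9%). Of 10238 genes near a peak and without a divergent coding partner, 2043 (19.96%) had 2 peaks within 500 bp of the TSS, and the median position of the centre of the space between these was -119 bp from the TSS, on its upstream side. Part of the difference came with the distance between TSSs. With TSSs at most 100 bp apart, 25.6% of the pairs had 2 or more shared peaks. The shares also depended on narrow peaks. With only peaks of at least 500 bp, 2 or more peaks were found at 32.2% of the pairs. The share of genes near a peak and without a divergent coding partner was then 7.95%.

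The form changed with the distance between the TSSs. A peak contained both TSSs in 75.3% of pairs with TSSs 1 to 100 bp apart, in 38.4% at 101 to 200 bp and in 27.05% at 201 to 300 bp. The share with 2 or more shared peaks was 25.6%, 56.3% and 69.7% in the same bins. At 301 to 500 bp the shares were 31.0% and 56.0%. Beyond 500 bp a flanking peak can hardly reach the far TSS, and 2 shared peaks were found in 3 of 50 pairs at 501 to 750 bp and in 0 of 20 pairs at 751 to 1000 bp.

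**Figure D3:**
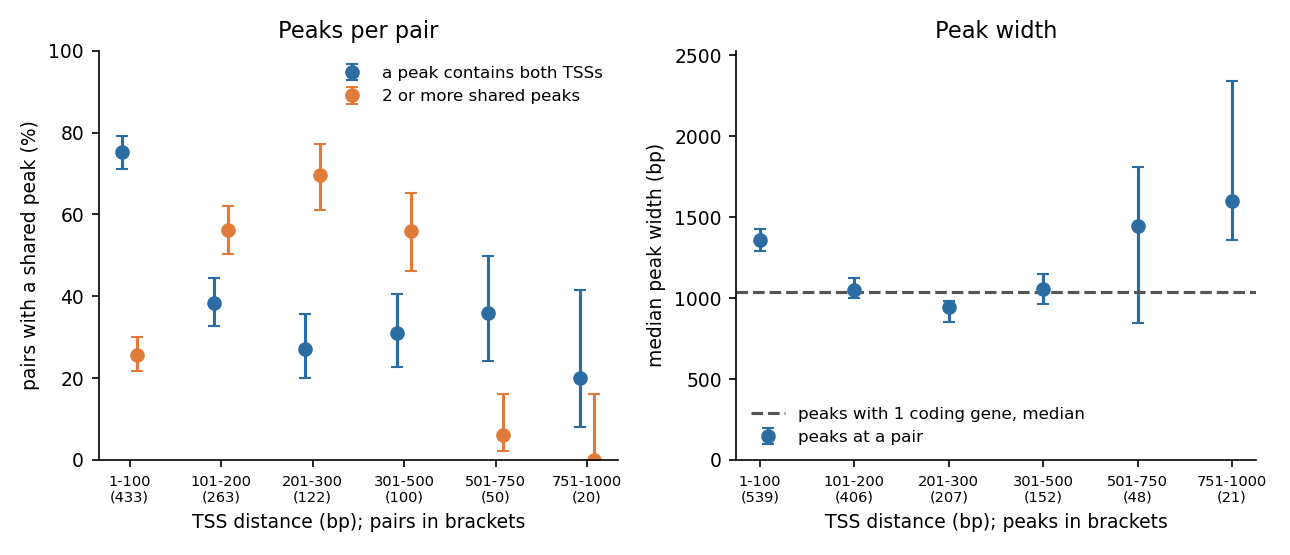
Left, share of pairs with a shared peak (y axis, %) in which a peak contained both TSSs (blue) or 2 or more peaks were shared (orange), by TSS distance (x axis, bp), with 95% Wilson intervals. Right, median width of member peaks (y axis, bp) by TSS distance with 95% intervals, and the median of peaks with 1 coding gene as a dashed line. A peak across both TSSs is most frequent at 1 to 100 bp, and 2 shared peaks at 201 to 300 bp.

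Member peaks ranged from 200 to 4582 bp in width, with a median of 1137 bp (95% interval 1094 to 1173, quartiles 773 to 1630). Peaks near 1 coding gene had a median of 1035 bp (1023 to 1049). A larger width was not particular to members. Peaks near 1 coding gene with a divergent noncoding TSS had a median of 1125 bp (1056 to 1173). Peaks near several coding genes without a divergent pair had 1204 bp (1148 to 1318). The rule itself bears on width, since a wide peak reaches a second TSS more easily than a narrow one. The difference of 102 bp from all peaks near 1 coding gene was 11 bp (interval -37.0 to 74.0) when peaks under 500 bp were left out of both sets. It was 326 bp for TSSs at most 100 bp apart, 544 bp with the TSSs inside the peak and 639 bp after peaks within 1 kb were merged. Members with TSSs 1 to 100 bp apart had a median width of 1361 bp, and those at 201 to 300 bp a median of 944 bp. The median was higher again at larger distances, with 1059 bp at 301 to 500 bp. It was 1447.5 bp (849 to 1810, 48 members) at 501 to 750 bp and 1600 bp (1362 to 2342, 21 members) at 751 to 1000 bp. Across the 1373 members, distance and width had a Spearman's rho of -0.18, a description of peaks that often share a locus. As the medians fell and then rose, this single value does not describe a steady decline of width with distance. The widest members were those at Dok1/Loxl3 with 4582 bp, Fbxl12/Ubl5 with 4445 bp, Polr2l/Tspan4 with 4419 bp, Thoc6/Hcfc1r1 with 4292 bp and Cd3eap/Ppp1r13l with 4238 bp. Polr2l encodes a subunit shared by the RNA polymerases, Ubl5 a ubiquitin-like protein of splicing and Thoc6 a subunit of an mRNA export complex. These widest peaks were lopsided in part, since the peak at Fbxl12/Ubl5 reached 3519 bp into Fbxl12 and 871 bp into Ubl5, and that at Thoc6/Hcfc1r1 reached 408 bp into Thoc6 and 3880 bp into Hcfc1r1.

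The closest pairs had TSSs 1 to 3 bp apart. Arfrp1/Zgpat, at 1 bp, had a peak of 2674 bp that reached 1244 bp into Arfrp1, a small GTPase, and 1428 bp into Zgpat. Bag4/Lsm1, also at 1 bp, had a peak of 1878 bp that reached 967 bp and 909 bp into its genes, of which Lsm1 acts in mRNA decay. Map4k5/Atl1, at 2 bp, shared a peak of 1716 bp. Ndufs1, a subunit of respiratory complex I, and the translation elongation factor gene Eef1b2 start 3 bp apart and shared a peak of 2935 bp. Dcun1d3/Lyrm1, at 1 bp, had peaks of 1109 bp and 826 bp, of which the narrower contained both TSSs.

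In the 502 members that contained both TSSs of the closest pair, the peak reached a median of 816.5 bp into a gene (interval 793 to 841, 1004 TSSs). In 10199 peaks that contained the TSS of 1 coding gene it reached 847 bp (837 to 855). The difference of -30.5 bp had an interval of -62.0 to 4.00 bp and depended on where TSSs were placed. It was -118.5 bp (-158.0 to -78.0) with 1 TSS per gene, -57.0 bp (-95.0 to -21.0) with RefSeq TSSs, -63.5 bp (-99.0 to -28.0) for peaks of at least 500 bp and 15.5 bp (-20.0 to 47.0) with the TSSs of all transcripts of coding genes. Within a member the reach was unequal, with medians of 1008 bp on the longer side and 622.5 bp on the shorter. The longer side was over 2 times the shorter in 156 members (31.1%). It was the plus-strand gene in 253 and the minus-strand gene in 249.

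Upstream of the TSS the genes of a pair differed from genes without a divergent coding partner. At 500 bp upstream, a peak covered 89.6% of 1976 pair TSSs and 46.2% of 10238 TSSs of genes without a partner. The 10238 genes are those with a peak near no other coding gene, so both sets hold only genes near a peak. At 1000 bp upstream the shares were 56.0% and 13.5%. Upstream of a pair gene lies the body of its partner, so the profile of a pair is close to symmetric by construction. At 500 bp downstream the shares were 83.7% and 84.6%. Farther downstream the pair genes had the lower share, with 40.6% and 45.1% at 1000 bp, 12.9% and 18.6% at 1500 bp, and 4.86% and 8.83% at 2000 bp. Coverage of pair TSSs had a low point of 62.2% at 75 bp upstream of the TSS, between maxima on either side. A dip was not particular to pairs. Coverage of genes without a partner fell slightly, from 68.5% at 200 bp upstream to 67.9% at 150 bp upstream, and rose again toward the TSS. Of the genes near a peak and without a coding partner, 824 had a divergent noncoding TSS within 1000 bp. Of these, 71.4% were covered at 500 bp upstream and 28.0% at 1000 bp upstream, between the shares of the other groups. Their coverage had a low point of 74.3% at 125 bp upstream.

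**Figure D4:**
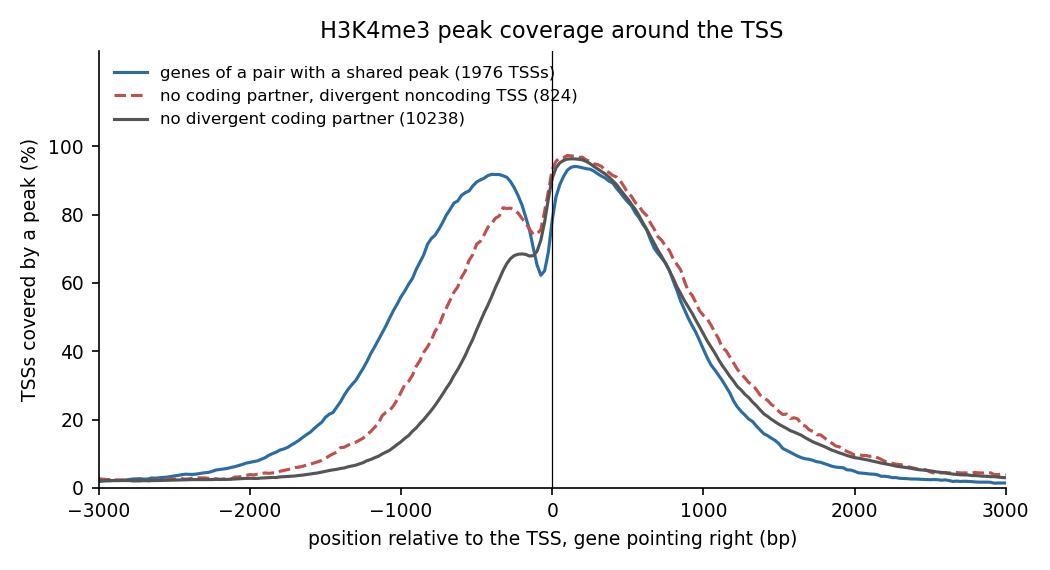
Share of TSSs covered by a listed peak (y axis, %) against position relative to the TSS (x axis, bp, transcription to the right). The blue line stands for 1976 TSSs of pairs with a shared peak, and the red dashed line for 824 genes with a divergent noncoding TSS but no coding partner. The grey line stands for 10238 genes without a coding partner and with a peak near no other coding gene. All of these sets hold only genes near a peak. At 500 bp upstream the lines stand at 89.6%, 71.4% and 46.2%, they lie close together at 500 bp downstream, and at 1000 bp downstream the blue line is the lowest, at 40.6%, with the red line at 50.5% and the grey line at 45.1%.

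Most genes of divergent pairs had a peak, with or without a TSS in a CpG island. A peak lay within 500 bp of a TSS of 2008 of 2156 pair genes (93.1%, interval 92.0 to 94.1) and of 10653 of 19697 genes without a partner (54.1%, 53.4 to 54.8). CpG islands differed between these sets, as 83.6% of pair genes and 48.6% of the others had a TSS in an island. Among genes with a TSS in an island the shares were 97.0% (96.1 to 97.7) and 90.3% (89.7 to 90.9). Among genes without, 260 of 354 pair genes had a peak (73.4%) and 2015 of 10131 genes without a partner (19.9%). The island was looked for at the TSSs of the gene only. A gene counted as without can thus lie beside an island, such as one at the TSS of its partner, so these are not all promoters free of islands.

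In 19 pairs a peak lay near 1 of the closest TSSs only, and in 13 of these the TSSs were over 500 bp apart. Other TSSs of the genes were not looked at for this count, so a gene without a peak here can have a peak at another TSS. At Foxa3/Sympk the peak lay near Sympk, an RNA 3′ end processing factor, and not near Foxa3, a liver transcription factor. At Tas1r1/Nol9 it lay near the nucleolar gene Nol9 and not near the taste receptor gene Tas1r1. At Ppp1r3f/Foxp3 the peak lay near Foxp3, which marks regulatory T cells. Among close pairs, Rad51c/Tex14 start 111 bp apart and had a peak near Rad51c, a recombination gene. Pinlyp/Xrcc1 start 171 bp apart and had a peak near Xrcc1, a gene of single-strand break repair. With TSSs this close, a peak within 500 bp of only 1 TSS contains neither of them and lies downstream, near the edge of that reach. Such calls follow from the limit of 500 bp and do not show that 1 start was marked and the other was not. These pairs were chosen after their values were seen.

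The 81 pairs without a listed peak near either TSS included Abcg5/Abcg8, sterol transporters of liver and intestine, Duox2/Duoxa2, an oxidase of the thyroid and its maturation factor, and the imprinted pair Peg3/Usp29. An island overlapped the stretch between the TSSs in 35.8% of the 81, against 90.2% of the pairs with a shared peak. The 81 also held genes that every cell uses, such as Haus1/Atp5a1, Nfya/Oard1 and Psmd10/Atg4a. The nearest listed peak lay 185 kb, 296 kb and 290.5 kb from them. Over all 81 the nearest peak lay 0.65 to 492 kb away with a median of 38.4 kb, and over 100 kb away in 19. Whether H3K4me3 was present at these loci in the libraries, or whether the list lacks stretches of the genome that hold them, cannot be read from a list of positions. The shares of 7.39%, 90.1% and 93.1% given above count such loci as without a peak. These pairs, too, were chosen after their values were seen.

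The share of genes in a divergent pair was counted by gene group. Of all 21853 coding genes 9.87% were in such a pair, and of the 12661 genes near a peak 15.9%. Genes of DNA repair were in a pair in 22 of 61 cases (36.1%, interval 25.2 to 48.6), and 20 of the 61 were in a pair with a shared peak. The widest peak among these was at Wrn/Purg with 2560 bp, Wrn being the helicase of Werner syndrome. Replication-dependent histone genes were in a pair in 27 of 67 cases (40.3%, 29.4 to 52.3). Chaperone genes were in a pair in 12 of 34 cases (35.3%, 21.5 to 52.1), with the widest peak at Pfdn6/Wdr46 with 2446 bp. Genes of the mitochondrial ribosome were in a pair in 26 of 78 cases (33.3%, 23.9 to 44.4) and subunits of the respiratory chain in 27 of 85 (31.8%, 22.8 to 42.3). The widest peaks in these groups were at Eme2/Mrps34 with 3071 bp and at Ndufs1/Eef1b2. The values were lower for aminoacyl-tRNA synthetases (9 of 36), proteasome subunits (23.1%, 9 of 39), DNA replication (11 of 50) and cytosolic ribosomal proteins (17.1%, 13 of 76). The widest peaks of the last 3 of these groups were at Psma7/Ss18l1 with 2633 bp, Wdhd1/Socs4 with 1876 bp and Lrsam1/Rpl12 with 3680 bp. The intervals of these 4 groups overlap each other, hold the 15.9% of genes near a peak, and overlap the intervals of the groups above, except that cytosolic ribosomal proteins (10.3 to 27.1) lay below the histones.

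In a further set of groups the share was below that of all coding genes. Zinc finger genes named Zfp were in a pair in 26 of 391 cases (6.65%, interval 4.58 to 9.56), with the widest peak at Zfp668/Zfp646 with 2647 bp. Collagen genes were in a pair in 2 of 44 cases, Col4a4 and Col4a3, a share of 4.55% with an interval of 1.26 to 15.1 that holds the share of all genes. A peak lay near 28 of the 44 collagen genes (63.6%), against 57.9% of all coding genes, so this list does not check the labelled cell type. A peak lay near 6 of 1092 olfactory receptor genes. None of the olfactory receptor genes was in a pair. Of 24 genes named in the study, Trp53 was in a pair. These lists were chosen with earlier results of these data known, and membership in a pair follows from the annotation and not from the libraries.

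**Figure D5:**
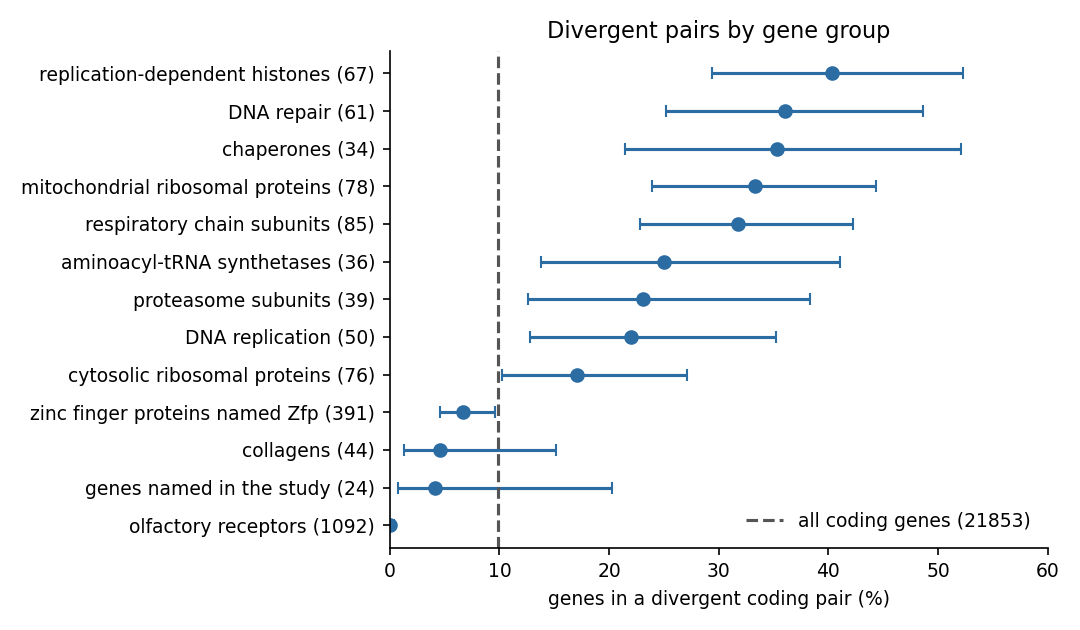
Share of the coding genes of each group that are in a divergent coding pair (x axis, %), with 95% Wilson intervals and the number of genes of the group in brackets. The dashed line is the share over all 21853 coding genes, 9.87%. Histone, DNA repair and chaperone genes have the highest shares, and olfactory receptors are at 0.

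The form of the peaks was counted for 3 of the groups, to be read against all 988 pairs, of which 51.9% had a peak across both TSSs and 40.8% had 2 or more shared peaks. Of 10 histone pairs with a shared peak, 9 joined 2 histone genes, in each case of an H2A and an H2B gene. Their TSSs were 156 to 302 bp apart (median 247), 8 of the 10 had 2 or more shared peaks, and 0 had a peak across both TSSs. Among all pairs with TSSs 201 to 300 bp apart, 69.7% had 2 or more shared peaks and 27.05% had a peak across both TSSs. The widest shared peak of a histone pair had a median of 578 bp, with a range of 253 to 1107 bp. At Hist2h2ac/Hist2h2be, whose stretch between the TSSs is printed above, peaks of 1107 bp and 596 bp covered the TSSs and left the middle free. The first of these peaks was also shared by Bola1/Hist2h2ab. Histone genes are near-identical copies, so the assignment of reads to single copies, and with it each of these peaks, is uncertain. In the 20 DNA repair pairs the TSSs were 21 to 798 bp apart (median 104.5), 10 pairs had a peak across both TSSs and 9 had 2 or more shared peaks, near the shares over all pairs. In the 25 pairs of mitochondrial ribosomal genes the median distance was 75 bp, and 15 had a peak across both TSSs. In 1 of these pairs, Mrpl46/Mrps11, both genes encode mitochondrial ribosomal proteins.

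Sequence around the TSSs was compared in windows from 250 bp before to 50 bp after the TSS. The ratio of observed to expected CpGs had a median of 0.857 in members (interval 0.849 to 0.866, 2746 windows) and 0.787 in peaks near 1 coding gene (0.782 to 0.791). G and C made up 62.7% and 63.3%. The 1373 members hold 963 distinct closest pairs, so some windows were entered more than once, and windows of close TSSs overlap. The interval for members is thus too narrow. A CpG island overlapped 1219 members (88.8%, 87.0 to 90.3) and 11072 of the peaks near 1 coding gene (80.2%, 79.5 to 80.9). Peaks near 1 coding gene with a divergent noncoding TSS had a ratio of 0.851 and an island in 87.6%. An island also overlapped 88.3% of the peaks near several coding genes without a divergent pair.

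The ETS motif CCGGAAG occurred in 29.3% of 1948 windows of pairs with a shared peak, in 15.6% of 10238 windows of genes near a peak without a partner and in 17.7% of those whose TSS lay in an island. Over all 54329 coding TSS positions the share was 10.7%. Windows of a pair overlap where the TSSs are close, so that 1 motif can count for both genes. Counted once per pair, the motif occurred between the TSSs of 17.6% of the 988 pairs. An example is the stretch between Kars and Terf2ip, printed above. The TSSs of these 988 pairs were a median of 117 bp apart, so most of the stretches were shorter than the windows. The 17.6% therefore cannot be set against the shares of windows. The YY1 motif AAGATGGC occurred in 7.96% of pair windows, 4.47% of windows without a partner, 5.02% of those in an island and 3.29% of all positions. The NRF1 motif CGCATGCG occurred in 5.29%, 3.31%, 3.93% and 2.28% of the same sets, and the intervals of the pairs and of the genes in an island meet at 4.38%.

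The other motifs are given for the same 4 sets in the same order. CCAAT occurred in 40.9%, 34.1%, 32.2% and 35.9% of windows, and GGGCGG in 69.5%, 70.1%, 78.3% and 43.1%. TGACGTCA occurred in 4.41%, 3.05%, 3.31% and 2.06%, where the intervals of the pairs and of the genes in an island overlap. TATAAA occurred in 4.06%, 5.56%, 4.27% and 11.3%, where the interval of the genes in an island lies within that of the pairs. None of these 7 motifs contains another, and CGCATGCG and TGACGTCA are their own reverse complements. In the 160 windows of pairs without a listed peak, CCGGAAG occurred in 10.0%, GGGCGG in 36.9% and CGCATGCG in 0%.

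Member peaks lay almost wholly in genes. Exons made up 48.4% of their bases, introns 48.0% and intergenic sequence 3.65%, whereas peaks near 1 coding gene were 16.4% intergenic. The rule puts a gene on either side of the TSSs of a member, so little intergenic sequence is left and the contrast follows largely from the rule. A putative enhancer from the study's list overlapped 10 members (0.728%, interval 0.396 to 1.34) and 498 peaks near 1 coding gene (3.61%). That list was made without regions within 1 kb of a TSS, and member peaks lie near at least 2 TSSs by rule. The nearest enhancer lay a median of 30.4 kb from members and 23.6 kb from peaks near 1 coding gene. Taken with the peaks near 1 coding gene, members made up 5.74% to 11.8% on the autosomes and 6.57% on chromosome X. Chromosome Y held 0 divergent coding pairs.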

How the data were processed

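According to the methods, the authors cut adapters with Trim Galore, mapped reads with BWA to build mm10 (GRCm38.p6), used samtools as a filter and Picard to join replicates, and found narrow peaks with MACS (MACS2 in the submitters' processing notes). Versions are not given in the sources used here. The 2 deposited lists used here, of peaks and of putative enhancers, hold positions in base pairs, pooled over libraries, with 0 columns of values per sample. Other lists of the study were not analysed here. The count test planned for changes over time could not be run on positions.

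Starts in the peak list count from 0 and were raised by 1. TSSs were the 5′ ends of protein-coding transcripts of protein-coding genes of GENCODE release M21 on 21 chromosomes, a release that differs from the authors'. A pair was represented by its closest TSSs, and a gene without a partner by the TSS nearest to the centre of its widest peak. Other peaks lay near several coding genes without a divergent pair (309) or near none (9871). CpG islands were segments of repeat-masked reference sequence that scored 17 per CpG and -1 per other base, with a length over 200 bp, over 50% G and C and over 0.6 times the CpGs expected from base composition, 16936 in all. Shares carry 95% Wilson intervals and medians 95% intervals from binomial order statistics, and the interval of a difference joins their far bounds.

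On simulated data, 720 classed peaks and 2230 gene pairs differed from a brute-force version in 0 cases, and 39 of 39 planted islands were recovered. Pairs were named if they are well-known divergent pairs, have 1 of the 5 widest peaks or 5 smallest TSS distances, lie just inside or outside 1000 bp, hold a gene the study named, or have the widest shared peak of a gene group. The rule for printed sequences was 30 to 300 bp between the TSSs of well-known pairs without an exon. The stretches that met it and some named pairs are not reported here, and those printed were added afterwards from named pairs and gene groups. Alternatives were other TSS sets, distances, reaches, peak widths, merged peaks, autosomes, stricter islands and, for the comparison, peaks without a divergent noncoding TSS. The members and lists were chosen with earlier results of these data known. The software was Python 3.11.15 with NumPy 2.4.6 and SciPy 1.17.1 for statistics, pandas 2.3.3 for tables, Numba 0.67.0 for islands, and Matplotlib 3.10.9 for plots.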

Additional observations from a re-analysis of the deposited data

Results flagged for a closer look

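The list held 74 peaks on 26 unplaced scaffolds and patches, outside the 21 chromosomes used for the gene pairs. They were not compared with genes here, and any count above 3 was enough to set them apart for a closer look.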

How the results depend on the processing

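No paired analysis was possible because neither list used here gives a value per replicate, only pooled positions. The limits are that the depth behind the positions is unknown, that intervals cover counting error only, and that several results depend on where TSSs are placed. Differences below are pairs minus genes or peaks without a divergent coding partner, and an alternative is given where it moved a value past its interval. The share of pairs with a shared peak (90.1%) was 92.4%, 81.5% and 94.3% with TSSs at most 500, 2000 and 100 bp apart, 46.8% with the TSSs inside the peak, 92.8% with a reach of 1000 bp and 87.5% for peaks of at least 500 bp. Members numbered 539 at a distance of at most 100 bp and 508 with both TSSs inside the peak. The difference in the share of genes with a peak (39.1 percentage points) was 41.1 with 1 TSS per gene and 34.99 with the TSS inside the peak. The difference in median width (102 bp) was 326 bp for TSSs at most 100 bp apart, 544 bp with the TSSs inside the peak, 11 bp for peaks of at least 500 bp and 639 bp after merging peaks within 1 kb. It thus depends on the rule and on how peaks are split. The difference in downstream reach (-30.5 bp) was -118.5 bp with 1 TSS per gene, -63.5 bp for peaks of at least 500 bp and 15.5 bp with the TSSs of all transcripts, where its sign turned. The difference in the share with an island (8.58 percentage points) was 4.88 with 1 TSS per gene, 11.6 at a distance of at most 100 bp, 3.56 for peaks of at least 500 bp and 14.2 with stricter islands. The difference in the CpG ratio (0.070) was 0.102 with 1 TSS per gene and 0.0876 at a distance of at most 100 bp. Alternatives for the next results were chosen after seeing the data. The difference in the share of loci with 2 or more peaks (20.6 percentage points) was 5.46 at a distance of at most 100 bp and 26.8 with peaks near either TSS. The difference in coverage at 500 bp upstream (43.3 percentage points) was 55.8 with 1 TSS per gene and 46.6 for peaks of at least 500 bp. At 500 bp downstream (-0.873 percentage points) it was -3.92 with 1 TSS per gene, -5.37 for peaks of at least 500 bp and 1.57 at a distance of at most 100 bp, where its sign turned. Taking any qualifying TSSs of a pair in place of the closest gave a shared peak in 90.4% of pairs. Of the 229 values recomputed, 142 stayed within the interval or, for the number of members, within 1.5 times, 85 moved and 2 changed sign. Except where a setting itself narrows the set, the cause was not tested.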
